A study of Arabidopsis thaliana with 14 samples.

Results

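TIR-type NLR genes encode intracellular immune receptors, and 60 listed Arabidopsis thaliana loci of this family were followed in plants that carried the ibm1-1 mutation and in wild-type Col-0 plants. The loci were taken by identifier and covered TIR-NBS-LRR genes and shorter TIR-NBS genes, among them the RPP4/SNC1 cluster, RPS4 and RRS1, RPS6, RMG1 and CHS3. The soil count table held 55 of the 60 loci among 21912 genes, and all 55 passed the filter on low counts. The medium count table held all 60 among 33602 genes, and 55 passed. The 5 loci without a test were the same in both experiments, namely TN2, RLM1A, AT1G63870, AT5G18350 and AT5G41540.

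IBM1 encodes a histone H3 lysine 9 demethylase, and ibm1-1 is a mutant allele of it. The soil comparison set 3 ibm1-1 libraries against 3 Col-0 libraries from whole plants that spent 5 days on plates and a further 10 days in non-sterile soil. The medium comparison set 2 ibm1-1 libraries against 2 Col-0 libraries from whole seedlings grown for 7 days on sterile Murashige and Skoog medium. No treatment was applied in either experiment, and the second comparison addressed whether the genotype effect was also present without soil microbes. Both experiments rest on a single mutant allele. Age and substrate differed together between them, as did read processing per the study's methods, and these cannot be told apart.

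A TIR-type NLR carries an N-terminal TIR domain, a nucleotide-binding domain and, in full-length members, leucine-rich repeats. When a receptor senses a pathogen effector, its TIR domain acts as an NAD-cleaving enzyme, and the products are read by EDS1 complexes that engage helper NLRs and promote salicylic acid signalling and local cell death. Many of these genes sit in clusters of recent duplicates, some work as head-to-head pairs, and an overactive member such as the snc1 allele of SNC1 is enough to stunt a plant and switch on defence.

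Library totals were 19957585 to 27001069 counts in soil and 18260809 to 21411230 counts in medium. IBM1 itself, counted over the whole gene, was at 18.5, 19.5 and 19.6 CPM (counts per 1000000) in soil-grown ibm1-1 plants, against 26.1, 26.4 and 24.9 CPM in Col-0. In medium it was at 17.2 and 17.2 CPM in ibm1-1, against 25.1 and 27.3 CPM in Col-0. The labelled whole-plant material carried leaf markers at 25100 to 30360.3 CPM in soil-grown ibm1-1 plants, against 30446.7 to 32471.1 CPM in Col-0, summed over 4 genes. The 3 seed markers were all higher in soil-grown ibm1-1 plants, with sums of 26.0 to 30.0 CPM against 0.0387 to 0.169 CPM in Col-0. In medium these seed sums were 0.554 to 1.48 CPM in ibm1-1, against 1.00 to 1.21 CPM in Col-0. Of the 5 root markers, 2 passed the adjusted p threshold upward and 1 downward in soil, and 0 upward and 2 downward in medium. Among senescence markers, SAG13 was higher in ibm1-1 in both experiments and SAG12 was at 0 counts in all 10 libraries. AP1 and AG, from the list of flower markers, were lower in soil-grown ibm1-1 plants, and SEP3 was higher in medium-grown ibm1-1 seedlings. The part of these tissue and stage differences in the results below was not tested. In whole-plant RNA a change in the number of cells of a type and a change in RNA per cell cannot be told apart.

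In soil, 9 of the 55 tested TIR-type NLR genes were upregulated DEGs (fold change above 2 and adjusted p below 0.05) in ibm1-1, which is 16.4%, and 0 were downregulated DEGs. Over all 20082 genes tested in soil, 5.87% were called higher and 2.39% lower. In medium, 11 of 55 were upregulated and 0 were downregulated, while the shares over all 20871 genes were 5.53% and 1.53%. At an unadjusted p below 0.05 and with no fold threshold, edgeR placed 36 members higher and 5 lower in soil. In medium it placed 21 higher and 1 lower. The share of all genes at that cutoff was not taken, so these counts have no background beside them. DESeq2 also called 0 members lower by both criteria in each experiment. The 9 upregulated in soil were all among the 11 upregulated in medium. Over the 19631 genes tested in both experiments, 2.79% were called higher in each.

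Most members moved little. The median log2 fold change of the 55 members was 0.20 in soil, with a range of -0.91 to 2.25, beside a median of 0.00 over all genes. In medium it was 0.24, with a range of -0.51 to 4.12, beside -0.01 over all genes. By adjusted p alone, 34 members were higher and 5 lower in soil, where 25.4% of all genes were higher and 25.9% lower. In medium the same rule gave 17 higher and 1 lower, where 11.5% of all genes were higher and 7.77% lower. All 3 ibm1-1 libraries lay above all 3 Col-0 libraries for 35 members in soil and below them for 5, while 28.5% of all genes lay above and 28.7% below. With 2 libraries a group in medium, 27 members lay wholly above and 2 wholly below, beside 30.8% and 31.0% of all genes, so this medium count of 27 in 55 rests on few libraries.

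The medium libraries of each genotype differed from each other for this family. Summed over the members, the level was 1743.0 and 1567.2 CPM in medium-grown ibm1-1 seedlings, against 1304.4 and 1634.4 CPM in Col-0, so the higher Col-0 library lay between both mutant libraries. Of the 55 members, 45 were higher in Col-0 replicate 2 than in Col-0 replicate 1, which is 81.8%, beside 48.1% of all genes. Likewise, 44 of the 55 were higher in ibm1-1 replicate 1 than in ibm1-1 replicate 2, which is 80%, beside 49.8% of all genes. The median member log2 fold change in medium was 0.08 without Col-0 replicate 1 and 0.40 without Col-0 replicate 2. In soil the sums did not overlap, with 2248.1, 2248.2 and 2299.6 CPM in ibm1-1 against 1866.8, 1846.3 and 1904.4 CPM in Col-0.

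**Figure D1:**
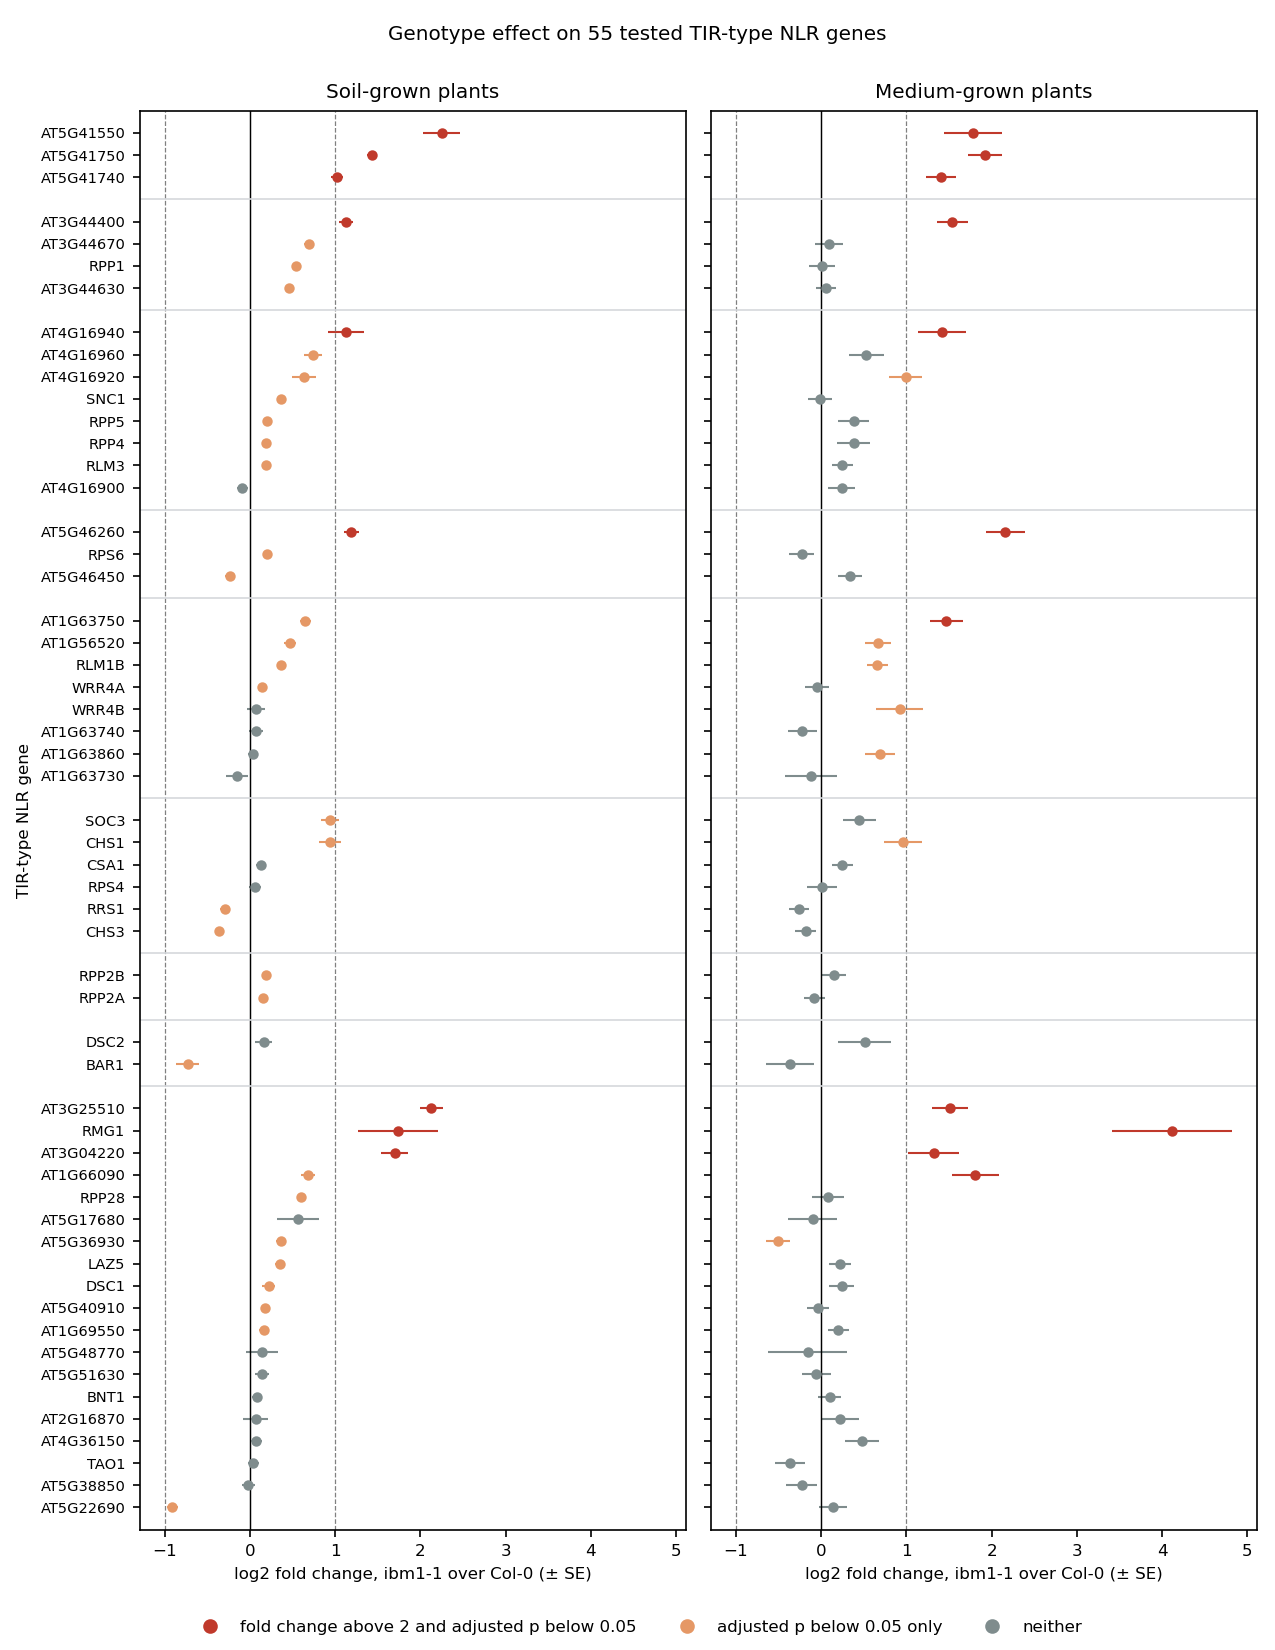
Log2 fold change of ibm1-1 over Col-0 with its standard error for the 55 tested genes (rows, grouped by cluster), in soil at left and in medium at right; colour gives the call and dashed lines mark a fold change of 2. The 9 soil calls and 11 medium calls lie right of the dashed line, the lowest soil value is -0.91 for AT5G22690, and no gene lies left of the dashed line at the negative end; the medium point of RMG1 rests on 3 Col-0 counts.

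The cluster from AT5G41540 to AT5G41750 on chromosome 5 was the group in which every tested member was upregulated in both experiments. AT5G41750 was at 42.9, 41.8 and 42.6 CPM in soil-grown ibm1-1 plants, against 15.4, 15.7 and 16.2 CPM in Col-0. AT5G41740 was at 33.8, 34.5 and 33.2 CPM in ibm1-1, against 14.6, 17.9 and 17.7 CPM in Col-0. AT5G41550, the least abundant of them, was at 4.26, 3.76 and 3.70 CPM in ibm1-1, against 0.658, 0.576 and 1.19 CPM in Col-0. For each of these genes ibm1-1 lay wholly above Col-0, as it did for 28.5% of all genes in soil. The log2 fold changes in soil were 1.43 ± 0.0584 for AT5G41750 (SE, edgeR adjusted p = 7.07e-19), 1.02 ± 0.0678 for AT5G41740 (adjusted p = 9.55e-14) and 2.25 ± 0.217 for AT5G41550 (adjusted p = 4.24e-10). AT5G41740 stood close to the fold threshold, and its log2 fold change was 0.93 without soil Col-0 replicate 1.

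In medium the same 3 genes were again higher. AT5G41750 was at 7.96 and 8.75 CPM in ibm1-1, against 2.07 and 2.33 CPM in Col-0, giving a log2 fold change of 1.92 ± 0.198 (adjusted p = 2.16e-04). AT5G41740 was at 18.6 and 14.2 CPM in ibm1-1, against 5.81 and 6.57 CPM in Col-0, giving a log2 fold change of 1.41 ± 0.175 (adjusted p = 6.07e-04). AT5G41550 was at 3.32 and 2.49 CPM in ibm1-1, against 1.01 and 0.685 CPM in Col-0, giving a log2 fold change of 1.78 ± 0.337 (adjusted p = 0.00589). No library of one genotype reached into the range of the other for any of the 3, beside 30.8% of all genes with ibm1-1 wholly above in medium. AT5G41540, the fourth locus of the cluster, stayed below the filter. AT5G41740 and AT5G41750 are tandem neighbours on the same strand, 712 bases apart, and 13.3% and 12.3% of their exonic 50-base words recur elsewhere in the genome, so some of their reads could have been shared with near copies.

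The 250 bases upstream of the annotated start are shown for the 3 upregulated genes of this cluster, because these genes moved together. They were read on the gene's strand, 5′ to 3′, from the RefSeq sequence of TAIR10.1, at chr5:16620825-16621074 on the minus strand for AT5G41550, and at chr5:16688376-16688625 and chr5:16693582-16693831 on the plus strand for AT5G41740 and AT5G41750. Capitals mark the longest run of bases that all 3 windows share.
AT5G41550: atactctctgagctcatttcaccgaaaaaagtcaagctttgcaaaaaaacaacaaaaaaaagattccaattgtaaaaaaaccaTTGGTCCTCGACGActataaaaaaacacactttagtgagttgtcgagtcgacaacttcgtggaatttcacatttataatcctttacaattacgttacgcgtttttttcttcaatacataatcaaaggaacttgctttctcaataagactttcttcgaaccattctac
AT5G41740: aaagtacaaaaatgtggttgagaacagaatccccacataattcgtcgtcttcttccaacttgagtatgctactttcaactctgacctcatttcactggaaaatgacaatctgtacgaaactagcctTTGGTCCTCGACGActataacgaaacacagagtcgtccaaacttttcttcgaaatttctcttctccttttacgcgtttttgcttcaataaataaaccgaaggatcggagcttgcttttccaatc
AT5G41750: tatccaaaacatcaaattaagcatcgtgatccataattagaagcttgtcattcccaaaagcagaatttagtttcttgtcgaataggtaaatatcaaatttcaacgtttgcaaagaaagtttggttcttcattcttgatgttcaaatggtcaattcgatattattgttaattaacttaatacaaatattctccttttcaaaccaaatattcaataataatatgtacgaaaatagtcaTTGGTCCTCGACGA
The shared run of 14 bases lies 167 to 154 bases before the start of AT5G41550, 124 to 111 bases before AT5G41740 and 14 to 1 bases before AT5G41750. In AT5G41750 the run stops at the edge of the window, so a match that continues into the gene would not be seen. On either strand the run of 14 bases occurs in 3 of the 27444 windows of this length before nuclear protein-coding genes, which is 0.0109%. The 3 are these genes. The window of AT5G41540, the untested locus of the cluster, lacks it. The run was found by comparing windows of genes already seen to move, and the genes are related by duplication, so the match is a description of sequence only.

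**Figure D2:**
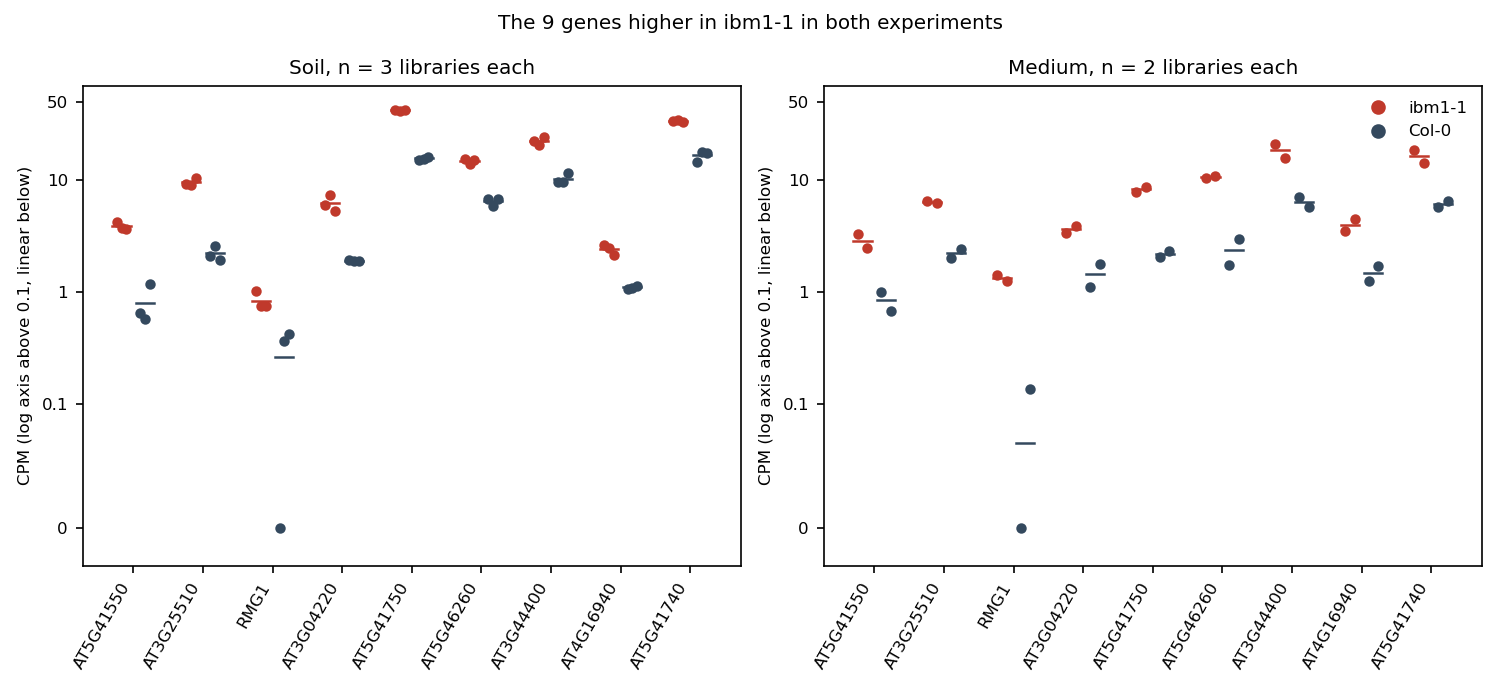
CPM per library (points) and group mean (bars) for the 9 genes upregulated in both experiments, with ibm1-1 left of Col-0 in each pair, for soil (3 libraries each) and medium (2 libraries each); the axis is logarithmic above 0.1 CPM and linear below. The groups do not overlap for any of the 9 genes, but the genes were chosen by the call, so this separation largely follows from the choice. Over all genes, ibm1-1 lay wholly above Col-0 for 28.5% in soil and 30.8% in medium. RMG1 has a Col-0 library at 0 in each experiment.

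RMG1, a receptor gene named for the methylated repeats in its promoter and known to be induced by bacterial flagellin, was the least abundant upregulated member. In soil it was at 1.02, 0.751 and 0.757 CPM in ibm1-1 plants, against 0, 0.367 and 0.424 CPM in Col-0, giving a log2 fold change of 1.74 ± 0.467 (edgeR adjusted p = 0.00246). The soil call was lost with DESeq2, which gave a log2 fold change of 1.70 and an adjusted p of 0.163. In medium it had 27 and 23 counts in ibm1-1 seedlings, against 0 and 3 counts in Col-0. Scaled to library size, the summed counts gave a ratio of 18.7, with an exact 95% interval of 6.05 to 93.9 that covers counting error only. All ibm1-1 libraries lay above all Col-0 libraries in both experiments, but RMG1 passed the low-count filter through its ibm1-1 libraries. Its soil counts were 25, 19 and 19 in ibm1-1, against 0, 7 and 10 in Col-0. The separation of the groups therefore adds no support of its own.

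The 250 bases before RMG1 are shown because the promoter of this gene is its best known feature. They lie at chr4:6810853-6811102 on the plus strand of TAIR10.1, and capitals mark the letters TTGAC, the core of the W-box bound by WRKY transcription factors, or their reverse complement GTCAA.
RMG1: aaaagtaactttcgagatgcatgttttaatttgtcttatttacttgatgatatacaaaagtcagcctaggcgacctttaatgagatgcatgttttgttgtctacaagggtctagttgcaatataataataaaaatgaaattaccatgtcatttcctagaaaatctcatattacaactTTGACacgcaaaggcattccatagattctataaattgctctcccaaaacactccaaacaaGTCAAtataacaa
RMG1 held 2 such cores in this window. Among the 60 loci, 29 held at least 1 core on either strand, which is 48.3%, beside 44.9% of all 27444 nuclear protein-coding genes. At least 3 cores were found for 7 of the 60 loci, which is 11.7%, beside 3.38% of all genes. Of the upregulated members, AT1G63750 held 3 cores, RMG1 and AT1G66090 held 2 each, AT5G41550, AT5G41750, AT3G04220 and AT5G46260 held 1 each, and AT3G25510, AT5G41740, AT4G16940 and AT3G44400 held 0. A match of letters is not a binding site, and the counts were not compared with the fold changes by a test.

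AT3G25510 and AT3G04220, outside the listed clusters, were upregulated in both experiments as well. AT3G25510 was at 9.26, 9.13 and 10.6 CPM in soil-grown ibm1-1 plants, against 2.13, 2.62 and 1.95 CPM in Col-0, giving a log2 fold change of 2.13 ± 0.135 (adjusted p = 3.09e-14). In medium it was at 6.53 and 6.26 CPM in ibm1-1, against 2.02 and 2.46 CPM in Col-0, giving a log2 fold change of 1.51 ± 0.213 (adjusted p = 0.00124). Its lowest ibm1-1 library lay above the highest Col-0 library in both experiments, as for 28.5% of all genes in soil and 30.8% in medium. AT3G25510 was named because of its call, so this separation largely follows from the choice. AT3G04220 was at 5.98, 7.35 and 5.38 CPM in ibm1-1 in soil, against 1.94, 1.89 and 1.91 CPM in Col-0, giving a log2 fold change of 1.70 ± 0.157 (adjusted p = 1.62e-10). In medium AT3G04220 was at 3.42 and 3.88 CPM in ibm1-1, against 1.11 and 1.78 CPM in Col-0, giving a log2 fold change of 1.32 ± 0.297 (adjusted p = 0.0131). Without medium Col-0 replicate 1 that adjusted p was 0.0578. The adjacent TIR-NBS gene AT3G04210, which is not among the 60 loci, was at 136, 131 and 134 CPM in soil-grown ibm1-1 plants, against 171, 171 and 165 CPM in Col-0, a log2 fold change of -0.34, and at 65.5 and 52.4 CPM in medium-grown ibm1-1 seedlings, against 27.9 and 23.0 CPM in Col-0, a log2 fold change of 1.21. AT3G04220 and its neighbour thus moved together in medium and apart in soil. AT3G04220 overlaps an annotated gene on the opposite strand, and the strand setting of the counting is not given in the sources used here. Of the exonic 50-base words of AT3G25510, 0.579% recur elsewhere, and 0% of those of AT3G04220.

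The RPP4/SNC1 cluster on chromosome 4 holds the most abundant genes of the family, and its members moved to very different extents. RPP4 and RPP5, receptors that recognise isolates of the downy mildew Hyaloperonospora, and SNC1, whose gain-of-function allele gives constitutive defence, rose by small amounts in soil. SNC1 was at 227, 230 and 249 CPM in ibm1-1 plants, against 185, 182 and 181 CPM in Col-0, giving a log2 fold change of 0.36 ± 0.0419 (adjusted p = 1.41e-08). RPP4 was at 194, 189 and 199 CPM in ibm1-1, against 168, 164 and 180 CPM in Col-0, giving a log2 fold change of 0.19 ± 0.0424 (adjusted p = 5.10e-04). RPP5 was at 205, 199 and 209 CPM in ibm1-1, against 174, 173 and 186 CPM in Col-0, giving a log2 fold change of 0.20 ± 0.0414 (adjusted p = 1.62e-04). The groups did not overlap for any of these genes, beside 28.5% of all genes wholly above in soil, and none came near a fold change of 2. RLM3, a TIR-NBS gene without repeats that limits the blackleg fungus Leptosphaeria and necrotrophs, lies at the end of the cluster. It was at 246, 261 and 247 CPM in ibm1-1, against 225, 215 and 222 CPM in Col-0, giving a log2 fold change of 0.19 ± 0.0407 (adjusted p = 2.84e-04).

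The low-level genes of the cluster had larger fold changes in soil. AT4G16940 was at 2.66, 2.49 and 2.15 CPM in ibm1-1, against 1.08, 1.1 and 1.14 CPM in Col-0, and was the upregulated DEG of the cluster, giving a log2 fold change of 1.13 ± 0.209 (adjusted p = 3.79e-05). AT4G16960 was at 8.93, 10.1 and 9.56 CPM in ibm1-1, against 4.99, 5.71 and 6.48 CPM in Col-0, giving a log2 fold change of 0.74. AT4G16920 was at 4.91, 5.02 and 6.33 CPM in ibm1-1, against 3.21, 3.72 and 3.60 CPM in Col-0, giving a log2 fold change of 0.63. AT4G16900 did not pass the test, with 22.0, 21 and 21.2 CPM in ibm1-1 against 21.6, 21.5 and 25.0 CPM in Col-0. By adjusted p alone, 7 of the 8 were higher in soil, beside 25.4% of all genes. These genes are near copies of each other: 56.7% of the exonic 50-base words of AT4G16960 recur elsewhere in the genome, 45.1% of those of RPP5, 39.4% of AT4G16920, 29.8% of AT4G16940, 29.1% of RPP4, 21.2% of SNC1 and 0% of RLM3. The authors' counting could have split or dropped such reads, so the values of all but RLM3 are uncertain to that extent.

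In medium the abundant genes of the cluster did not pass the test. SNC1 was at 215 and 192 CPM in ibm1-1 seedlings, against 180 and 229 CPM in Col-0, giving a log2 fold change of -0.01 ± 0.139. RPP4 was at 65.6 and 55.3 CPM in ibm1-1, against 35.5 and 57.0 CPM in Col-0, and RPP5 at 109 and 89.7 CPM in ibm1-1, against 61.5 and 90.8 CPM in Col-0. For these genes the spread between the Col-0 libraries was larger than the difference between genotypes. AT4G16940 was again upregulated, at 3.53 and 4.54 CPM in ibm1-1 against 1.26 and 1.73 CPM in Col-0, giving a log2 fold change of 1.42 ± 0.283 (adjusted p = 0.00765). AT4G16920 was at 6.32 and 6.87 CPM in ibm1-1 against 3.49 and 3.15 CPM in Col-0, giving a log2 fold change of 0.99 ± 0.192 (adjusted p = 0.00672), just below the fold threshold.

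The genes interspersed with the cluster did not follow it as a block. AT4G16880, a leucine-rich repeat gene between RPP4 and SNC1, was at 37.8, 38.5 and 39.2 CPM in soil-grown ibm1-1 plants, against 22.5, 25.7 and 22.0 CPM in Col-0, giving a log2 fold change of 0.72. In medium its log2 fold change was -0.08. AT4G16892, annotated as a noncoding RNA, was higher in soil, at a log2 fold change of 0.61 (edgeR adjusted p = 0.0176). In medium AT4G16892 was at -0.78 without passing the test. AT4G16910, annotated as a pseudogene, had 4, 3 and 3 counts in soil-grown ibm1-1 plants, against 29, 21 and 22 counts in Col-0. It was a downregulated DEG in soil and was not tested in medium. AT4G16970 did not pass in either experiment, at log2 fold changes of 0.20 in soil and -0.23 in medium. AT4G16980, between AT4G16960 and RLM3, had a log2 fold change of -0.00 in soil and -0.09 in medium.

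**Figure D3:**
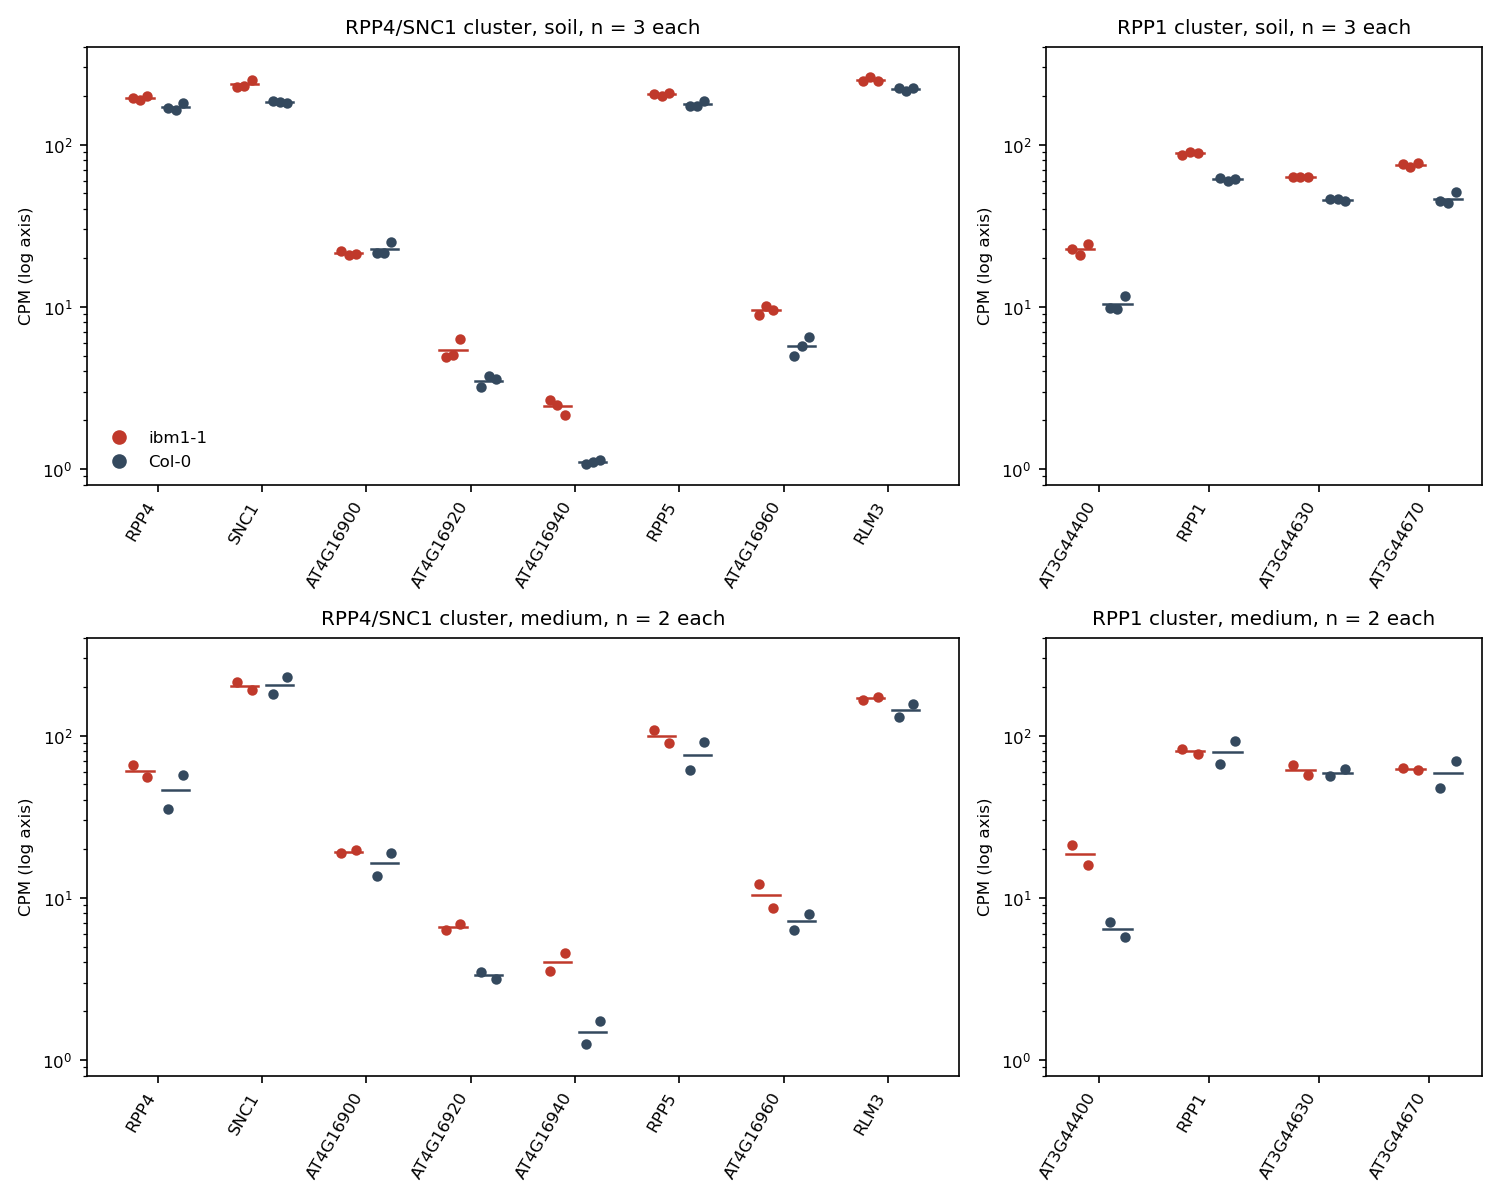
CPM per library (points, log axis) and group mean (bars) for the 8 genes of the RPP4/SNC1 cluster and the 4 genes of the RPP1 cluster, with ibm1-1 left of Col-0, in soil (upper row) and medium (lower row). In soil the groups are apart for 7 of the 8 and all 4 genes, beside 28.5% of all genes wholly above and 28.7% wholly below. In medium SNC1, RPP4, RPP5 and RPP1 overlap and AT3G44400 and AT4G16940 stay apart.

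In the RPP1 cluster on chromosome 3, named for a receptor of downy mildew effectors of the ATR1 family, all 4 genes were higher in soil-grown ibm1-1 plants by adjusted p, beside 25.4% of all genes. AT3G44400 was the DEG among them, at 22.7, 20.9 and 24.3 CPM in ibm1-1 against 9.76, 9.69 and 11.6 CPM in Col-0, giving a log2 fold change of 1.13 ± 0.0807 (adjusted p = 5.73e-13). RPP1 was at 86.6, 90.6 and 89.0 CPM in ibm1-1, against 61.9, 60 and 61.1 CPM in Col-0, giving a log2 fold change of 0.54 ± 0.0439 (adjusted p = 1.02e-11). AT3G44670 and AT3G44630 had log2 fold changes of 0.69 ± 0.0520 and 0.46 ± 0.0463 (edgeR adjusted p = 1.90e-12 and 9.04e-10). No library overlapped between genotypes for any of the 4 genes in soil, beside 28.5% of all genes wholly above and 28.7% wholly below.

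In medium AT3G44400 was again upregulated, at 21.1 and 16.0 CPM in ibm1-1 seedlings against 7.08 and 5.75 CPM in Col-0, giving a log2 fold change of 1.54 ± 0.182 (adjusted p = 4.63e-04). The other members were not called. RPP1 was at 83.2 and 76.8 CPM in ibm1-1, against 66.9 and 92.0 CPM in Col-0, and the log2 fold changes of RPP1, AT3G44630 and AT3G44670 were 0.01 ± 0.150, 0.06 ± 0.118 and 0.09 ± 0.165. Shared 50-base words made up 44.3% of RPP1, 36.6% of AT3G44670, 28.2% of AT3G44630 and 17.2% of AT3G44400, so reads of these genes could also have been exchanged.

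The RPS6 cluster on chromosome 5 went different ways within itself. RPS6, the receptor of the Pseudomonas effector HopA1, was at 78.1, 76.2 and 83.6 CPM in soil-grown ibm1-1 plants, against 65.2, 72.0 and 70.9 CPM in Col-0, giving a log2 fold change of 0.20 ± 0.0484 (adjusted p = 0.00114). AT5G46260 was at 15.6, 14.1 and 15.1 CPM in ibm1-1, against 6.81, 5.92 and 6.86 CPM in Col-0, giving a log2 fold change of 1.19 ± 0.0909 (adjusted p = 2.75e-12). AT5G46450 was at 35.5, 33.8 and 34.3 CPM in ibm1-1, against 39.3, 42.3 and 40.8 CPM in Col-0, giving a log2 fold change of -0.24 ± 0.0523 (adjusted p = 3.16e-04). So among these listed genes AT5G46260 was a DEG in soil, RPS6 was slightly higher and AT5G46450 slightly lower. Unlisted TIR-NBS genes with nearby identifiers also differed in soil. AT5G46490 was an upregulated DEG, at a log2 fold change of 1.04 (edgeR adjusted p = 1.54e-12). By adjusted p, AT5G46270 and AT5G46520 were higher, at 0.57 and 0.53, and AT5G46510 was lower, at -0.34. In medium AT5G46260 was at 10.5 and 10.9 CPM in ibm1-1, against 1.77 and 2.97 CPM in Col-0, giving a log2 fold change of 2.16 ± 0.230 (adjusted p = 2.51e-04). RPS6 and AT5G46450 did not pass in medium, at log2 fold changes of -0.23 ± 0.149 and 0.34 ± 0.144. For AT5G46260, 22.3% of the exonic 50-base words recur elsewhere.

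RPS4 and RRS1 form a receptor pair in which RRS1 carries a WRKY domain that effectors such as AvrRps4 and PopP2 attack, and RPS4 signals. The genes are head to head, and the 27 bases between their annotated starts are shown because both transcripts begin at its ends. They lie at chr5:18326176-18326202 of TAIR10.1 and are printed on the plus strand, which is the strand of RRS1.
RPS4-RRS1 gap: tgagatttgagtggttgaatgtccaat
Neither gene was a DEG. RPS4 was at 22.8, 25.4 and 22.7 CPM in soil-grown ibm1-1 plants, against 24.6, 20.5 and 22.4 CPM in Col-0, with overlapping groups and a log2 fold change of 0.06 ± 0.0690. RRS1 was at 23.3, 24.0 and 23.8 CPM in ibm1-1, against 27.8, 30.4 and 28.9 CPM in Col-0, lower in every mutant library, giving a log2 fold change of -0.29 ± 0.0592 (adjusted p = 1.50e-04). The ratio of RPS4 to RRS1 counts was 0.975, 1.06 and 0.955 in ibm1-1, against 0.886, 0.676 and 0.773 in Col-0. These ratios did not overlap, and the exact two-sided permutation test gave p = 0.1, the smallest value that 3 against 3 allows. In medium the ratios overlapped, and the log2 fold change of RRS1 was -0.26 ± 0.123 without passing the test.

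A like shift was measured in the pair of CSA1 and CHS3, in which CHS3 carries an added LIM domain and its gain-of-function allele causes chilling-sensitive autoimmunity. CHS3 was at 35.6, 34.1 and 35.2 CPM in soil-grown ibm1-1 plants, against 44.0, 44.6 and 46.3 CPM in Col-0, giving a log2 fold change of -0.36 ± 0.0507 (adjusted p = 4.98e-07). CSA1 was at 25.1, 26.3 and 26.4 CPM in ibm1-1, against 25.3, 22.9 and 22.5 CPM in Col-0, and did not pass the test (log2 fold change 0.13 ± 0.0624). The count ratio of CSA1 to CHS3 was 0.707, 0.772 and 0.749 in ibm1-1, against 0.575, 0.515 and 0.486 in Col-0, again without overlap and with an exact permutation p of 0.1. In medium this ratio was 0.512 and 0.510 in ibm1-1, against 0.402 and 0.359 in Col-0, where the smallest exact p with 2 against 2 is 0.333.

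SOC3 and CHS1 encode a full-length receptor and a TIR-NBS partner, first linked by the chilling-sensitive chs1 mutant. In soil SOC3 was at 12.7, 12.4 and 11.7 CPM in ibm1-1 plants, against 7.43, 5.92 and 5.68 CPM in Col-0, and CHS1 was at 6.27, 6.52 and 6.81 CPM in ibm1-1, against 3.45, 3.46 and 3.30 CPM in Col-0. Both had a log2 fold change of 0.94 (SE 0.102 and 0.126, adjusted p = 4.29e-09 and 2.31e-07), just below the fold threshold. With library size as the only scaling both passed it, at 1.06, and SOC3 was at 1.08 without soil Col-0 replicate 1. In medium the log2 fold changes were 0.45 ± 0.197 for SOC3 and 0.96 ± 0.224 for CHS1 (adjusted p = 0.139 and 0.0158). The count ratio of SOC3 to CHS1 overlapped between genotypes in soil, at 2.03, 1.90 and 1.72 in ibm1-1 against 2.16, 1.71 and 1.72 in Col-0 (exact permutation p = 0.8). In medium it was lower in both mutant libraries, at 1.41 and 1.25 in ibm1-1 against 2.07 and 1.76 in Col-0, with an exact permutation p of 0.333. The 2 gene models overlap by 3193 bases on opposite strands, so their reads may not be told apart. TN2, the third gene of this neighbourhood, had 0 to 3 counts per medium library. The co-acting downy mildew receptors RPP2A and RPP2B rose slightly together in soil, at log2 fold changes of 0.15 ± 0.0472 and 0.19 ± 0.0506 (edgeR adjusted p = 0.00803 and 0.00187), and were not called in medium, at -0.08 ± 0.124 and 0.15 ± 0.137.

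In the RLM1 and WRR4 clusters on chromosome 1, 0 of the 8 tested genes were upregulated DEGs in soil and 1 was in medium. Over all genes 5.87% and 5.53% were called higher, so with 8 genes these DEG counts were near the background. By adjusted p alone, 4 of the 8 were higher in soil and 5 in medium, beside 25.4% and 11.5% of all genes. Their median log2 fold change was 0.11 in soil and 0.66 in medium. The medium DEG was AT1G63750, at 18 and 14 CPM in medium-grown ibm1-1 seedlings against 6.57 and 4.98 CPM in Col-0. Its log2 fold change in medium was 1.47 ± 0.191 (edgeR adjusted p = 7.45e-04). In soil it was at 33.0, 34.7 and 37.4 CPM in ibm1-1, against 23.2, 21.1 and 22.4 CPM in Col-0, giving a log2 fold change of 0.65 ± 0.0613 (adjusted p = 2.50e-10). RLM1B, of the locus for resistance to Leptosphaeria, was higher in both by adjusted p, at log2 fold changes of 0.36 ± 0.0444 in soil and 0.66 ± 0.126 in medium (edgeR adjusted p = 5.37e-08 and 0.00618). WRR4A, a receptor for white rust, was at 53.4, 53.6 and 50.3 CPM in soil-grown ibm1-1 plants, against 46.3, 47.7 and 48.5 CPM in Col-0, giving a log2 fold change of 0.14 ± 0.0484 (adjusted p = 0.0138). Its paralog WRR4B had a log2 fold change of 0.07 ± 0.102 in soil and 0.92 ± 0.277 in medium (adjusted p = 0.614 and 0.0447), at 3.37 and 2.83 CPM in medium-grown ibm1-1 against 1.82 and 1.46 CPM in Col-0. AT1G63860 was at 29.6, 30.0 and 31.9 CPM in soil-grown ibm1-1 plants, against 31.3, 28.3 and 29.5 CPM in Col-0, with overlapping groups. In medium AT1G63860 was at 18.8 and 14.3 CPM in ibm1-1, against 11.6 and 8.99 CPM in Col-0, higher by adjusted p at a log2 fold change of 0.69 ± 0.181 (adjusted p = 0.0263). RLM1A had 0 to 2 counts per medium library, and AT1G63870 had 0 to 5.

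Several further receptor genes had small fold changes in soil. LAZ5, found through lesion-mimic suppression, and RPP28, a downy mildew receptor, were higher in soil, at log2 fold changes of 0.35 ± 0.0566 and 0.60 ± 0.0490 (edgeR adjusted p = 6.47e-06 and 1.02e-11). DSC1, which guards the calmodulin-binding factor CAMTA3, had a log2 fold change of 0.22 ± 0.0795 in soil (adjusted p = 0.0193), and DSC2, with the same role and the last gene of the AT5G18350 to DSC2 cluster, 0.16 ± 0.101 without passing the test. TAO1, which contributes to recognition of the effector AvrB, and BNT1 did not pass in either experiment. AT1G66090, a TIR-NBS gene, was at 4.37 and 5.26 CPM in medium-grown ibm1-1 seedlings, against 1.62 and 1.14 CPM in Col-0, giving a log2 fold change of 1.81 ± 0.272 (adjusted p = 0.00176). In soil AT1G66090 was at 16.3, 14.6 and 16.0 CPM in ibm1-1, against 9.25, 9.48 and 10.4 CPM in Col-0, giving a log2 fold change of 0.68 ± 0.0823 (adjusted p = 3.30e-08).

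The largest decrease in soil was that of AT5G22690, at 13.2, 12.9 and 14.2 CPM in ibm1-1 plants against 25.5, 26.4 and 24.0 CPM in Col-0. Its log2 fold change was -0.91 ± 0.0689 (adjusted p = 2.01e-12), short of a fold change of 2. In medium the same gene was at 13.5 and 10.2 CPM in ibm1-1, against 11.2 and 10.3 CPM in Col-0, with overlapping groups. BAR1, the receptor of the Pseudomonas effector HopB, was at 3.36, 4.31 and 4.34 CPM in soil-grown ibm1-1 plants, against 5.89, 6.65 and 7.50 CPM in Col-0, giving a log2 fold change of -0.73 ± 0.133 (adjusted p = 2.86e-05). Together with CHS3, RRS1 and AT5G46450 these are the 5 members lower in soil by adjusted p. AT5G36930 was the member lower in medium by adjusted p, at 15.0 and 13.9 CPM in ibm1-1 against 18.5 and 22.5 CPM in Col-0, giving a log2 fold change of -0.51 ± 0.141 (adjusted p = 0.0327). In soil AT5G36930 was higher, at 34.0, 31.2 and 32.2 CPM in ibm1-1 against 25.9, 25.3 and 25.0 CPM in Col-0, giving a log2 fold change of 0.36 ± 0.0574 (adjusted p = 5.31e-06). The 11 tested members not named here had log2 fold changes between -0.15 and 0.56 in soil and between -0.23 and 0.67 in medium, with 3 and 1 of them higher by adjusted p and 0 called.

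The upregulated members were not among the most abundant of the family. By level per kilobase of exon, averaged over both genotypes, 21 tested members lay above the highest upregulated one in soil and 31 in medium. Per kilobase of exon, the 10 members with the highest soil level were RLM3, RPP4, SNC1, RPP5, RLM1B, RPS6, AT3G44670, WRR4A, RPP1 and RPP2A, at 10.6 to 53.6 CPM per kb in Col-0, and their soil log2 fold changes lay between 0.14 and 0.69. The 9 members upregulated in soil were at 0.24 to 8.78 CPM per kb in ibm1-1, against 0.0748 to 4.35 CPM per kb in Col-0. In medium the 10 highest members had log2 fold changes of -0.08 to 0.66, and the 11 upregulated members were at 0.383 to 4.26 CPM per kb in ibm1-1, against 0.0194 to 1.61 CPM per kb in Col-0. The same tendency held over all genes. Split at the median mean level of the members, 22 CPM in soil, 2 of 27 members above it were upregulated, which is 7.41%, beside 1.05% of all genes above it. Below it, 7 of 28 members were upregulated, which is 25%, beside 9.27% of all genes below it. In medium, split at 13.9 CPM, 0 of 27 members above and 11 of 28 below were upregulated, which is 39.3% of those below, beside 2.37% and 9.43% of all genes.

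**Figure D4:**
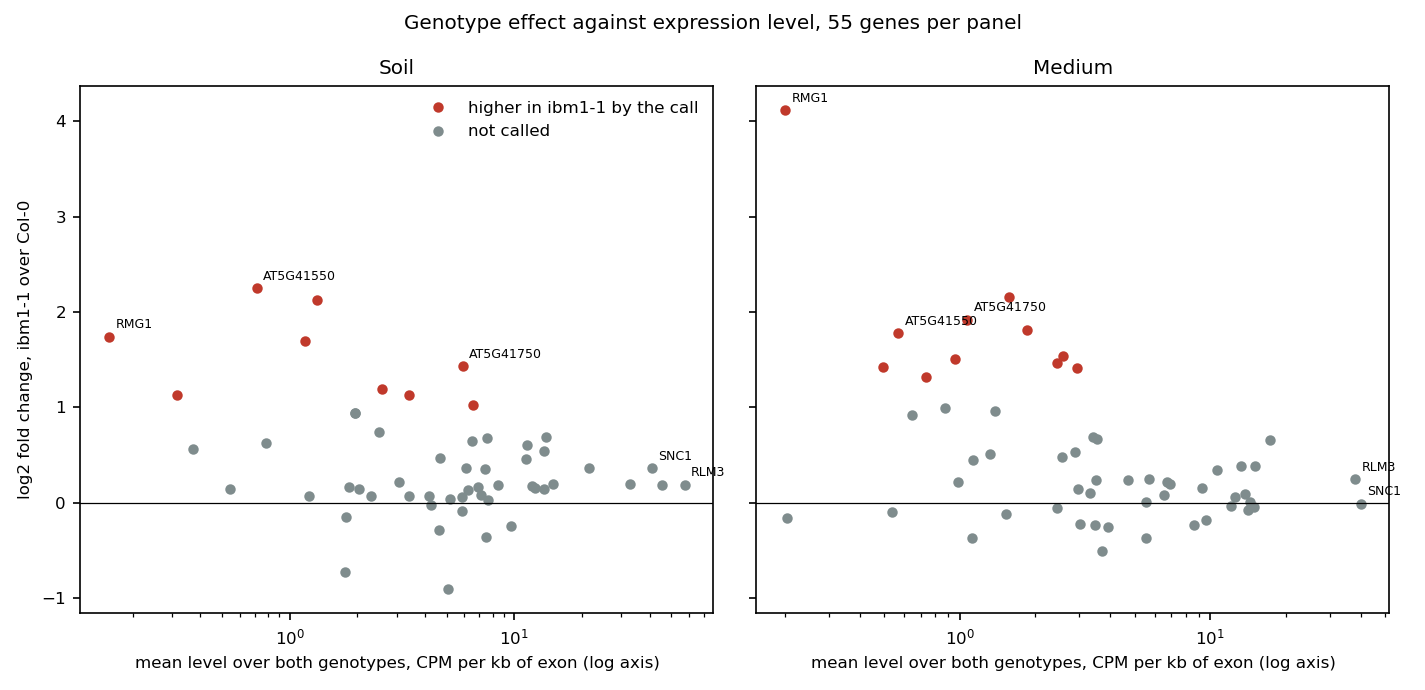
Log2 fold change of ibm1-1 over Col-0 against the mean level over both genotypes in CPM per kb of exon (log axis) for the 55 tested genes, in soil and in medium. The 9 and 11 upregulated genes lie at the left and middle of the level range, and the genes at the right end, such as RLM3 and SNC1, lie near 0.

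The genotype effect itself was then compared between experiments with an interaction term over all 10 libraries. Of the 55 members, 12 had a different effect in soil than in medium (limma adjusted p below 0.05), 7 with the larger value in soil and 5 with the larger value in medium. Over all 20192 genes tested, 7.64% had the larger value in soil and 9.64% in medium, 17.3% in either direction, so the 12 of 55 were near the background. The median difference of the members was -0.02 on the log2 scale, beside 0.01 over all genes. None of AT5G41550, AT5G41740, AT5G41750, AT3G25510, AT3G04220, RMG1, AT4G16940 and AT3G44400 had a called difference, while AT5G46260 did, with a soil effect 0.98 ± 0.319 below the medium effect (difference -0.98, adjusted p = 0.0375). That call was lost without soil Col-0 replicate 1, medium ibm1-1 replicate 2 or medium Col-0 replicate 1 (adjusted p = 0.0508, 0.0603 and 0.0926). Among the called members, the most negative difference was -1.04 ± 0.196 for AT5G22690 (adjusted p = 6.78e-04) and the most positive 0.89 ± 0.155 for AT5G36930 (adjusted p = 3.04e-04), both with fitted effects of opposite sign. In the RPP1 cluster, AT3G44670, RPP1 and AT3G44630 had differences of 0.59 ± 0.151, 0.52 ± 0.125 and 0.42 ± 0.110 (adjusted p = 0.00824, 0.00550 and 0.0102). The call of AT3G44670 was lost without medium Col-0 replicate 2 (0.30, adjusted p = 0.0661), and that of AT3G44630 without medium ibm1-1 replicate 2 (0.32, adjusted p = 0.0549).

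**Figure D5:**
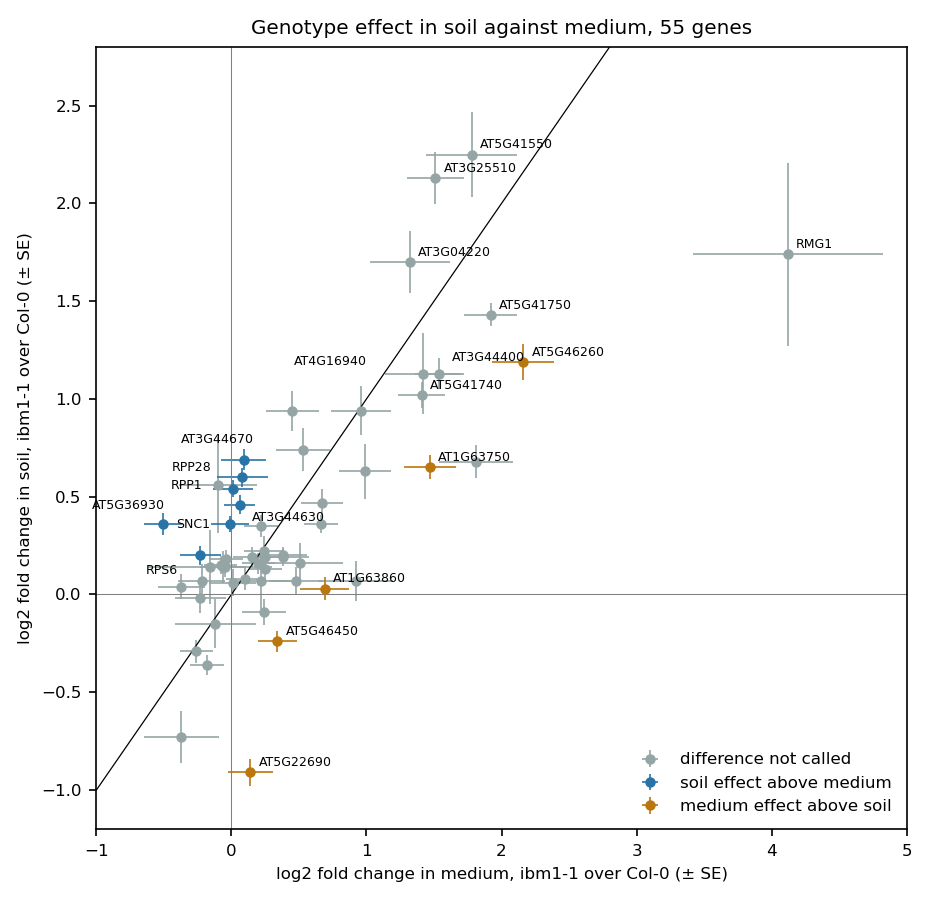
Log2 fold change of ibm1-1 over Col-0 in soil (vertical axis) against that in medium (horizontal axis) with standard errors for 55 genes; the diagonal marks equal effects and colour gives the call of the difference. The 9 genes upregulated in both lie in the upper right, 7 genes in blue have the larger soil effect and 5 genes in orange the larger medium effect; the medium value of RMG1 rests on 3 Col-0 counts.

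TIR-NBS genes of the annotation outside the 60 loci were counted as well. Of 47 such loci, 31 were tested in soil, with 5 upregulated and 0 downregulated, and 37 in medium, with 7 upregulated and 0 downregulated. The upregulated shares were 16.1% in soil and 18.9% in medium, beside 5.87% and 5.53% of all genes. By adjusted p alone, 18 were higher and 7 lower in soil, which is 58.1% and 22.6% beside 25.4% and 25.9% of all genes, and 10 of 37 were higher and 0 lower in medium, beside 11.5% and 7.77% of all genes. Their median log2 fold change was 0.42 in soil and 0.42 in medium. A list of 9 genes encodes proteins that act downstream of TIR receptors. In soil ADR1, PAD4 and EDS1B were upregulated, at log2 fold changes of 1.54, 1.43 and 1.01, and 8 of the 9 were higher by adjusted p, beside 25.4% of all genes, with a median of 0.58. NRG1.1 did not pass (adjusted p = 0.124). In medium ADR1 and SAG101 were upregulated, at log2 fold changes of 1.24 and 1.02, and 6 of the 9 were higher by adjusted p, beside 11.5% of all genes, with a median of 0.62. EDS1, NRG1.1 and NRG1.2 did not pass (adjusted p = 0.482, 0.983 and 0.128). Of 8 further genes listed as NLR regulators, 7 were tested, and 0 were DEGs in either experiment. Their medians were -0.00 in soil and -0.06 in medium, with 2 higher and 1 lower by adjusted p in soil and 0 in medium. Over all genes, 25.4% were higher and 25.9% lower in soil by this rule, so the soil counts were near the background. The 2 were SRFR1, which restrains SNC1, and the chaperone gene HSP90.2, and the lower one was the corepressor gene TPR1.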

How the data were processed

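RNA-seq was made from whole plants with a directional kit, 3 ibm1-1 and 3 Col-0 libraries in soil and 2 and 2 in medium. The authors deposited raw counts per gene. Per the study's methods, soil reads were trimmed with SolexaQA and cutadapt and aligned with TopHat to TAIR10, and medium reads were trimmed with Trimmomatic 0.36 and aligned with HISAT to TAIR10, with counting by HTSeq. The submitters' processing notes name Trimmomatic 0.36, HISAT2 2.1.0 and HTSeq 0.9.1 for the soil libraries as well, which conflicts with the methods. Which is right for the soil counts is not known. Multi-mapped reads and overlapping genes can lower or blur counts of near copies. The bisulfite samples were not analysed here.

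Each experiment was fitted alone in edgeR 4.0.16 (R 4.3.3; filterByExpr, TMM scaling, quasi-likelihood test, Benjamini-Hochberg over all genes tested), with calls at fold change above 2 and adjusted p below 0.05. SE were derived from the effect size and its F statistic. CPM are deposited counts per 1000000 counts in tested genes, scaled by TMM. The difference between experiments was an interaction term in limma 3.58.1 (voom with quality weights). Biological coefficients of variation were 0.0390 in soil and 0.106 in medium. Replicates of one group differed by 2.29 to 12.8 in chi-square per gene, above the 1 that sampling alone gives, so none was a repeat of another. Replicates are biological per the study's methods. The scripts were tested on simulated data.

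Exon lengths, coordinates and sequences came from RefSeq TAIR10.1, which shares the nuclear chromosomes of TAIR10. Of the members, those with a symbol or known role, those upregulated, those lower by adjusted p and those with a called difference were named. The other genes of the RPP4/SNC1 cluster, neighbouring genes, AT3G04210 and the unlisted genes with identifiers near RPS6 were added after their values were seen. The members and lists were chosen with earlier results of these data known. Alternatives were DESeq2 1.42.0, its size factors, library size only, a filter at 5 mean CPM or none, no fold threshold, a replicate block and leaving out each library.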

Additional observations from a re-analysis of the deposited data

Results flagged for a closer look

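For 12 members the genotype effect differed between soil and medium by the interaction test, which is near the 17.3% of all genes with a called difference. Values are the soil effect minus the medium effect on the log2 scale. They were 0.89 for AT5G36930, 0.59 for AT3G44670, 0.52 for RPP1, 0.51 for RPP28, 0.44 for RPS6, 0.42 for AT3G44630 and 0.37 for SNC1, and -1.04 for AT5G22690, -0.98 for AT5G46260, -0.83 for AT1G63750, -0.65 for AT1G63860 and -0.57 for AT5G46450. Several of these calls were lost when a single library was left out, in some cases with the difference itself hardly changed. Without medium Col-0 replicate 2 the difference was 0.16 for RPP28, 0.30 for AT3G44670, 0.19 for SNC1, 0.28 for RPS6 and -0.47 for AT1G63860, with limma adjusted p of 0.426, 0.0661, 0.162, 0.151 and 0.0692. Without medium Col-0 replicate 1 it was -0.63 for AT5G46260, with an adjusted p of 0.0926. Without medium ibm1-1 replicate 1 it was -0.65 for AT1G63750 and -0.45 for AT1G63860 (adjusted p = 0.0777 and 0.134), and without medium ibm1-1 replicate 2 it was 0.32 for AT3G44630, -0.96 for AT5G46260, 0.28 for SNC1 and 0.26 for RPS6 (adjusted p = 0.0549, 0.0603, 0.107 and 0.230). Leaving out a soil library ended the call of SNC1 in 3 cases, of RPP28 in 4, of RPS6 in 4 and of AT5G46260 in 1, with adjusted p of 0.0508 to 0.0790. RPS6 also had an adjusted p of 0.0501 with genes of at least 5 CPM only. Age, substrate and read processing cannot be told apart here.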

How the results depend on the processing

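The counts of upregulated members held under most settings. With a mean CPM of at least 5, which tests fewer genes, 376 genes were higher and 274 lower in soil and 518 and 139 in medium, with 5 members higher in each experiment, all among the main calls. With no fold threshold, 5109 genes were higher and 5198 lower in soil, with 34 and 5 members, and 2391 and 1622 in medium, with 17 and 1 members. Library size as the only scaling moved the median of all soil genes to 0.12 and that of the members to 0.31, relative to which the members changed little. It also gave AT4G16900 a soil log2 fold change of 0.03. DESeq2 called 8 members higher in soil and 11 in medium.

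Leaving out 1 library in turn gave a member median of 0.18 to 0.23 in soil and 0.08 to 0.40 in medium, 9 members upregulated in soil in each case and 11 to 13 in medium. Of the 9 soil calls 8 were kept without Col-0 replicate 1, and of the 11 medium calls 10 were kept without Col-0 replicate 1. The sign of several uncalled members turned in medium. With library size only, RPS4 and RPP1 were at -0.02 and -0.02. Over the libraries left out, SNC1 lay between -0.18 and 0.17, RPS4 between -0.22 and 0.29, RPP1 between -0.21 and 0.26, AT3G44630 between -0.05 and 0.15, AT3G44670 between -0.17 and 0.40, WRR4A between -0.28 and 0.14, RPP28 between -0.23 and 0.46, RPP2A between -0.22 and 0.07, RPP2B between -0.02 and 0.34, AT5G22690 between -0.08 and 0.33, and, in soil, WRR4B between -0.01 and 0.14. The cause was not tested. The number of members with a different effect in soil and medium was 9 to 15 over the libraries left out, and 15 with edgeR.

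In soil the correlations of same-numbered deviations were -0.0194, 0.0229 and 0.00807, which does not settle whether samples were prepared in pairs. In medium the correlation was 0.115, and it is a single value because the deviations of 2 replicates mirror each other. With the replicate number as a block, 1170 genes were higher and 476 lower in soil, with 9 members, and 1219 and 356 in medium, with 11 members, and 13 members differed between experiments.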
